A study of Bos taurus with 30 samples.

Results

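The microRNAs (miRNAs) miR-7 and miR-375 were examined in small RNA libraries from the hypothalamic arcuate nucleus (ARC) of bull calves. They were chosen by name, as the rows bta-miR-7 and bta-miR-375 of the deposited expression table, and are 2 of its 1030 mature miRNA rows. A total of 863 rows held a read in at least 1 library, and both members were among the 476 miRNAs that passed the filter on low values. All 30 animals were Holstein-Friesian bulls, and each gave 1 library. From 2 to 12 weeks of age, 15 calves (HI) received 1.5 kg of milk replacer per day in 10 litres with concentrates to appetite. The other 15 calves (MOD) received 0.5 kg of milk replacer per day in 4 litres and 0.5 kg of concentrates. The comparison asked whether early plane of nutrition altered miRNA abundance in the ARC, the part of the hypothalamus where neurons sense metabolic status. No calf was sampled before the diets began. RNA came from whole pieces of tissue, whose cell types were not separated.

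A mature miRNA is a short RNA held by an Argonaute protein, which it guides to messenger RNAs through pairing of its seed, the bases near its 5′ end. The guided complex lowers the stability and translation of the messenger RNA. Both miR-7 and miR-375 are known as miRNAs of neuroendocrine and endocrine cells. The sequence of miR-7 is conserved from insects to mammals, and miR-7 is abundant in the hypothalamus, the pituitary and the pancreatic islets. The circular RNA CDR1as, which is abundant in neurons, carries many binding sites for miR-7. miR-375 was first described in pancreatic islets, where it restrains insulin secretion, and it is also abundant in the pituitary gland and in many epithelia.

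The RefSeq annotation of the ARS-UCD2.0 assembly held MIR375 (gene 100313041) and the miR-7 precursor genes MIR7-2 (gene 100313103) and MIR7-3 (gene 791055). MIR375 overlapped no other annotated gene and lay between the protein-coding genes CRYBA2, 8.947 kb away, and CFAP65, 1.129 kb away. MIR7-3 lay between FEM1A, 15.285 kb away, and DPP9, 56.351 kb away. MIR7-2 lay within HNRNPK, which codes for an RNA-binding protein of every cell. The table had a single row for mature miR-7, so reads from the different miR-7 precursors could not be told apart. The alignment used ARS-UCD1.2, an older assembly, and the annotation was therefore used only for names and neighbours, without positions.

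Abundance is given as CPM after the authors' scaling of library sizes, so the values of a library do not sum to a fixed total and can differ from its plain shares of reads. Depth, as miRNA reads in the table, was lowest at 6291387 and highest at 21083238 in a library, with a median of 8635365. Depth fell into 2 classes, with 21 libraries at or below 8988052 reads (12 HI and 9 MOD) and 9 at or above 17193348 reads (3 HI and 6 MOD). The animal codes were unevenly spread over the diets, since 7 of the 9 lowest codes were HI calves. What the codes and the depth classes stand for is not given by the labels. The neuron miRNAs miR-124a and miR-9-5p had reads in every library, at 826 to 9705 CPM and 11292 to 73041 CPM, and so did miR-383 and miR-488, the listed hypothalamic neuron miRNAs in the table.

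A set of libraries stood apart. The epithelial list is 8 miRNAs that are abundant in epithelia and in the pituitary gland, which lies below the ARC and whose anterior lobe is of epithelial origin. Of these, miR-200a, miR-200c, miR-141, miR-429, miR-182 and miR-183 passed the filter, and their mean log2(CPM + 0.25) is used as a score. The score lay between 1.85 and 4.86 in 21 calves (10 HI and 11 MOD) and between 7.19 and 11.3 in 9 calves (5 HI and 4 MOD), with no calf between. The most abundant of the list, miR-182, ranged from 33.8 to 605 CPM in the 21 calves and from 1969 to 39239 CPM in the 9. The summed CPM of the list was 55.9 to 715 in the 21 calves and 2661 to 51695 in the 9. The members that did not pass the filter, miR-200b and miR-96, had no read in 1 and in 2 of the 21 calves, respectively, and were above 0 in all 9. These sets are not groups of the study, so they are described separately and not tested against each other.

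miR-7 was abundant in every ARC library and varied far less than miR-375. Its lowest level was 1969 CPM, its median 4390 CPM and its highest 9594 CPM, a 4.87-fold range over the 30 calves. It ranked 40th of the 476 tested miRNAs by median level, and between the 30th and the 61st place within single libraries. From 15022 to 124040 reads lay behind each value, so counting error was small beside the differences between calves. On the log2 scale its standard deviation (SD) over calves was 0.59, against a median of 0.37 over all tested miRNAs, which placed it 88th by spread.

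miR-375 was detected in every library but its level differed widely from calf to calf. Its lowest level was 75.7 CPM, its median 761 CPM and its highest 47575 CPM, a 628-fold range. Its SD of 2.42 on the log2 scale was the 7th highest of the 476 tested miRNAs. The 6 miRNAs that varied more were the tested members of the epithelial list, with SDs from 3.16 to 3.64. miR-375 was 4th in abundance in the library of HI calf A37824 and 218th in that of MOD calf A97821. In the first of these it took 3.33% of miRNA reads (95% exact Clopper-Pearson interval 3.31 to 3.34%), and in the second 0.00680% (0.00643 to 0.00720%). These intervals cover counting error only. The fewest miR-375 reads in a library were 858.

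**Figure D1:**
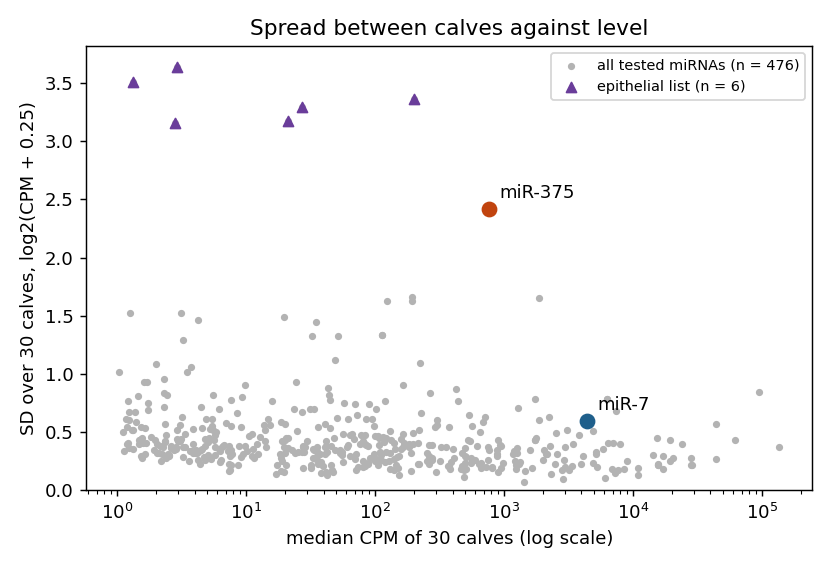
SD of log2(CPM + 0.25) over the 30 calves (vertical axis) against median CPM on a log scale (horizontal axis), 1 point for each of the 476 tested miRNAs. miR-375 (SD 2.42) lies below the 6 epithelial list miRNAs (triangles, 3.16 to 3.64) and above all other miRNAs, while miR-7 (SD 0.59) lies nearer to the bulk at a higher level.

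The calves with most miR-375 came from both diets. The highest values were 47575 CPM in HI calf A37824, 25453 CPM in MOD calf A41971, 23902 CPM in HI calf A17855, 23507 CPM in MOD calf A73759 and 20624 CPM in HI calf A31979. Lower levels of 6845 CPM in MOD calf A57867, 5771 CPM in HI calf A93744, 4685 CPM in HI calf A42931 and 3192 CPM in MOD calf A21978 followed. These 9 calves were the same 9 that had the high epithelial list scores. The next calf, HI calf A77860, had 1268 CPM. Among the 21 calves with low scores miR-375 ranged from 75.7 to 1268 CPM with a median of 606 CPM, so miR-375 did not overlap between the sets. The same held for 14 of the 476 tested miRNAs (2.94%), all higher in the 9 calves, among them the 6 epithelial list miRNAs that define the sets. Since miR-375 follows that score, this is a description and not a test.

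The levels of miR-7 did overlap between the sets. miR-7 ranged from 1969 to 6379 CPM with a median of 3789 CPM in the 21 calves with low scores. It ranged from 3810 to 9594 CPM with a median of 6907 CPM in the 9 calves with high scores. The 5 calves with most miR-375 had 9594, 7225, 6907, 7769 and 8741 CPM of miR-7, in the order given above. On the authors' scaling these were the highest miR-7 values, since no other calf exceeded 6379 CPM (HI calf A27864). As a plain share of miRNA reads the order differed, with 0.671, 0.565, 0.588, 0.697 and 0.722% in the same 5 calves. Calves with low scores above the lowest of these were A38765 (MOD, 0.690%), A27864 (HI, 0.637%), A47874 (MOD, 0.610%) and A81983 (HI, 0.580%). HI calf A93744, with a high score, had 0.673%. In bulk tissue, fewer cells of a type and less RNA per cell cannot be told apart.

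The balance between the 2 miRNAs turned over in part of the calves. The ratio of miR-375 to miR-7 within a library, which does not depend on how that library was scaled, ranged from 0.0355 in MOD calf A97821 to 4.96 in HI calf A37824, with a median of 0.195. miR-375 exceeded miR-7 in 8 of 30 calves (5 HI and 3 MOD), and all 8 were among the 9 with high epithelial list scores. The remaining calf of the 9, A21978, had a ratio of 0.769. Among the 21 calves with low scores the ratio lay between 0.0355 and 0.296. Small RNA library preparation captures different miRNAs with different efficiency, so a ratio above 1 does not show that the tissue held more miR-375 molecules than miR-7 molecules.

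**Figure D2:**
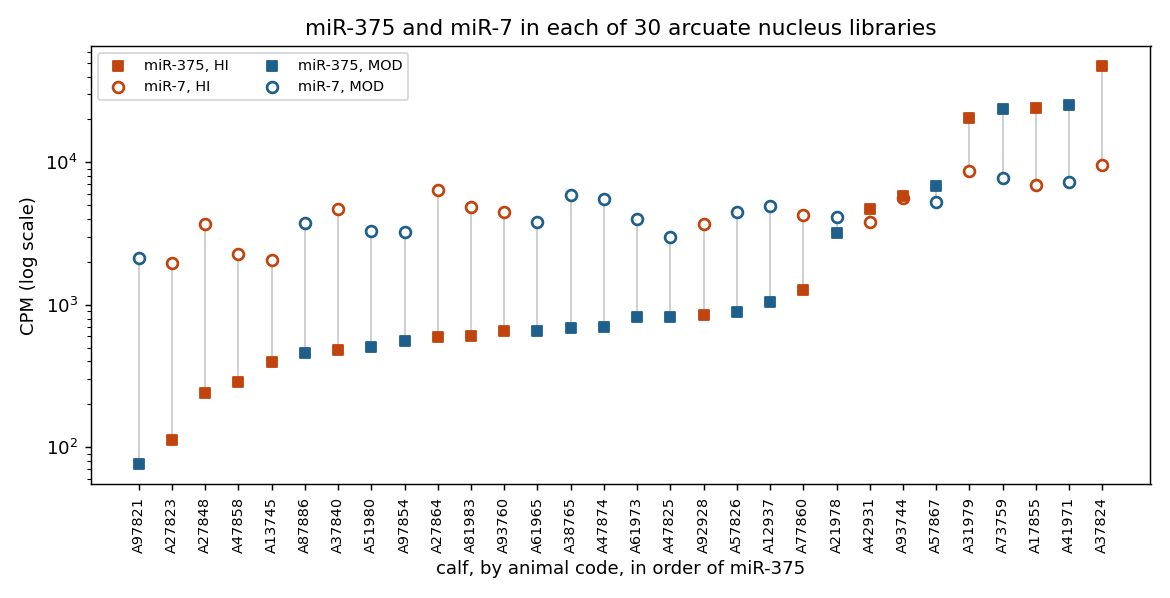
CPM of miR-375 (squares) and miR-7 (open circles) on a log scale for each of the 30 calves, ordered by miR-375 and coloured by diet, with a line joining the values of a calf. The miR-375 values run from 75.7 to 47575 CPM and pass those of miR-7 in 8 calves at the right, while miR-7 stays between 1969 and 9594 CPM.

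miR-7 and miR-375 rose and fell together within both sets of calves. Because the calves form separate sets on the score, no correlation over all 30 was tested. In the 9 calves of the high set, Pearson's r between the members on the log2 scale was 0.937 (exact permutation p = 0.000416, adjusted p = 0.00208 over 10 relations) and Spearman's rho was 0.817 (exact permutation, adjusted p = 0.0215). With A21978 and A42931 left out, which lay at the low end of miR-375 in this set, r was 0.904. Within the 6 shallower libraries of the 9, r was 0.938 (exact permutation p = 0.00694) and rho was 0.829 (exact permutation p = 0.0583). No value is given for the deeper libraries, the separate diets and the code classes, which held 3 to 5 calves each.

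Among the 21 calves with low scores the relation was looser. Pearson's r was 0.680 (permutation p = 0.00072, adjusted p = 0.00705) and Spearman's rho was 0.534 (permutation p = 0.0134), which did not pass the correction (adjusted p = 0.103). Without A97821 and A27823, the calves with least miR-375, r was 0.453 (permutation p = 0.0517), so the strength of the relation rested in part on them. On untransformed CPM r was 0.524 (permutation test, adjusted p = 0.129). Within diets r was 0.656 in 10 HI calves (permutation p = 0.0382) and 0.719 in 11 MOD calves (permutation p = 0.0133). Pearson's r was 0.632 in the 15 shallower libraries (permutation p = 0.0130) and 0.739 in the 6 deeper ones (exact permutation p = 0.0861). There rho was 0.536 (permutation p = 0.0412) and 0.6 (exact permutation p = 0.242). In the 16 calves outside the lowest animal codes r was 0.662 (permutation p = 0.00478) and rho was 0.368 (permutation p = 0.161). No value is given for the 5 calves of the lowest codes.

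On the authors' scaling, the log2 level of miR-7 moved by similar amounts per unit of log2 miR-375 in both sets. The levels of miR-375 differed between the sets. The fitted slope was 0.336 in the 21 calves (0.308 to 0.365 as each calf was left out in turn) and 0.319 in the 9 calves (0.286 to 0.338). In CPM, each additional 1000 CPM of miR-375 went with 2211 CPM of miR-7 in the 21 calves (1909 to 2812) and with 124.3 CPM in the 9 calves (113.2 to 155.8). The difference between the slopes was not tested. No slope was fitted with libraries scaled by size alone, so their likeness is shown for the authors' scaling only.

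**Figure D3:**
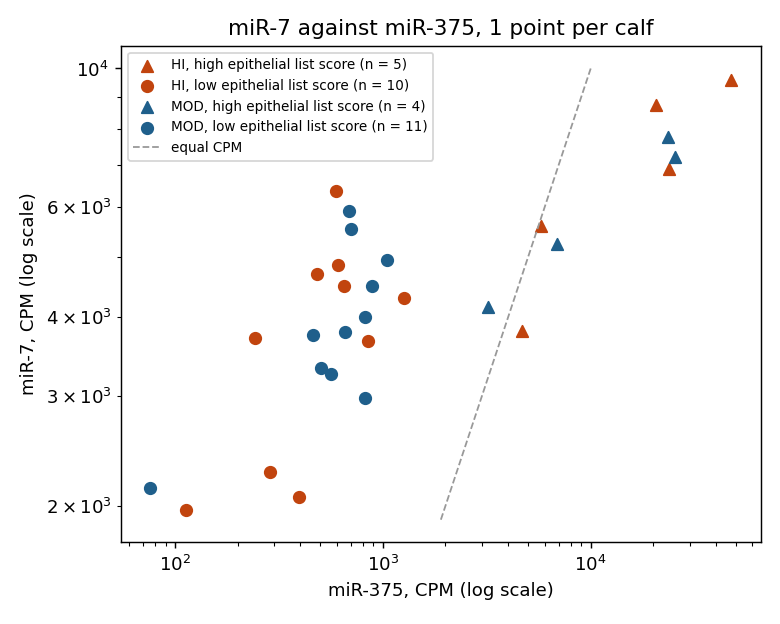
CPM of miR-7 against CPM of miR-375, both on log scales, 1 point per calf. Triangles are the 9 calves with a high epithelial list score, circles the 21 with a low score, colours the diets, and the dashed line marks equal CPM. Within each set miR-7 is higher where miR-375 is higher (r = 0.937 and r = 0.680), and both diets are spread along the whole range.

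miR-375 followed the epithelial list closely in the 9 calves that had it at high levels. There r between miR-375 and the list score was 0.965 (exact permutation, adjusted p = 0.000524), rho was 0.95 (exact permutation, adjusted p = 0.00353), and r was 0.951 without the 2 calves farthest from the median. miR-7 followed the list too, with r of 0.891 (exact permutation, adjusted p = 0.00569) and rho of 0.9 (exact permutation, adjusted p = 0.00676), but the call was lost with libraries scaled by size alone (r = 0.737, exact permutation, adjusted p = 0.0590). In the fit on log2 levels, miR-375 gained 0.91 and miR-7 gained 0.29 per unit of the list score. With the list score taken out of both members, r between miR-7 and miR-375 in the 9 calves was 0.648 and did not pass the test (exact permutation, adjusted p = 0.0868), while rho was 0.8 (exact permutation, adjusted p = 0.0231). It was 0.338 with libraries scaled by size alone, 0.457 with depth class means removed and 0.211 with animal code class means removed (exact permutation, adjusted p = 0.425, 0.215 and 0.584), so a relation beyond the list score was not established in these 9 calves.

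Among the 21 calves with low scores neither member passed the test with the epithelial list. Here r was 0.23 for miR-375 and 0.25 for miR-7 (permutation test, adjusted p = 0.526 for both). Part of the score was near the floor in these calves, since miR-429, miR-200a and miR-200c reached the filter's cutoff of 1.16 CPM in 8, 14 and 17 of the 21, and miR-429 fell to 0.131 CPM. The test therefore says little about a weak relation. For miR-141, miR-182 and miR-183, which reached the cutoff in all 21 calves, r was 0.483, 0.051 and 0.033 with miR-375 and 0.558, 0.034 and 0.107 with miR-7, given without a test. With the score taken out of both members, r between miR-7 and miR-375 was 0.661 (permutation test, adjusted p = 0.00705) and rho was 0.508 (adjusted p = 0.103), but a score partly at the floor can remove little, so these values do not show that the relation is separate from epithelial miRNAs. Without A27823 the call was lost (r = 0.549, permutation test, adjusted p = 0.0635).

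The summary score of the neuron miRNAs was lower where miR-375 was higher in the 9 calves, although not every member followed it. The neuron list holds 9 tested rows, among them miR-9-5p, miR-128 and the identical rows miR-124a and miR-124b, and its summed level was 20382 to 68553 CPM in the 9 calves and 56691 to 98097 CPM in the 21. In the 9 calves r with the list score was -0.856 for miR-375 (exact permutation, adjusted p = 0.00608) and -0.768 for miR-7 (exact permutation, adjusted p = 0.0284). Single members ran from -0.896 (miR-9-5p) to 0.471 (miR-129) with miR-375, and miR-218 was also positive at 0.266. With miR-7 these 3 values were -0.831, 0.623 and 0.313. With the score of miR-383 and miR-488, found in hypothalamic neurons, r was -0.741 for miR-375 (exact permutation, adjusted p = 0.0284) and -0.626 for miR-7 (exact permutation, adjusted p = 0.0868). Of the pair, miR-488 had r of -0.742 with miR-375 and -0.643 with miR-7, and miR-383 had -0.227 and -0.148. With libraries scaled by their size alone, r for miR-7 and the neuron list was -0.334 (exact permutation, adjusted p = 0.425) and that for miR-375 and the hypothalamic neuron list was -0.701 (exact permutation, adjusted p = 0.0764). Both calls were also lost when A37824, A42931, A21978 or A57867 was left out (r from -0.757 to -0.687 and from -0.747 to -0.674), and the latter also without A93744 (r = -0.716). CPM are relative within a library, so a fall in one class and a rise in others cannot be told apart. The part of pituitary or other epithelial tissue in these levels was not tested.

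In the 21 calves the neuron list split by member. r of miR-7 was 0.855 with miR-129, 0.658 with miR-153 and 0.603 with miR-137, and -0.694 with miR-9-5p, -0.549 with miR-124a and -0.514 with miR-128. The same members were positive and negative for miR-375, from 0.787 with miR-153 to -0.667 with miR-9-5p. These single values were picked after they were seen and have no test. The score over the whole list did not pass the test with either member (r = 0.191 for miR-375 and 0.177 for miR-7, permutation test, adjusted p = 0.558 for both), nor did the hypothalamic neuron score (r = -0.100 and 0.041, adjusted p = 0.743 and 0.859), whose members had opposite signs with miR-375 (0.176 for miR-383 and -0.438 for miR-488). With libraries scaled by size alone, the neuron score reached r of 0.596 with miR-375 and 0.633 with miR-7 in these calves (permutation test, adjusted p = 0.0143 and 0.00763). The hypothalamic neuron score then reached 0.528 with miR-7, which passed, and 0.408 with miR-375, which did not (permutation test, adjusted p = 0.028 and 0.112).

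Both members were lower where the oligodendrocyte miRNAs were higher, most firmly in the 21 calves. miR-219-5p and miR-338 are miRNAs of oligodendrocytes, the myelin-forming cells, and with the other lists below they were related to the members after the data had been seen. In the 21 calves r with their score was -0.838 for miR-7 (permutation test, adjusted p = 0.00024 over 12 relations) and -0.793 for miR-375 (permutation test, adjusted p = 0.00048). The rank correlations were -0.751 for miR-7 (permutation test, adjusted p = 0.00102) and -0.526 for miR-375 (adjusted p = 0.0468). Without A27823 and A97821, r was -0.762 and -0.552. In the 9 calves r was -0.879 for miR-7 and -0.829 for miR-375 (exact permutation, adjusted p = 0.0145 for both). There the call for miR-7 was lost with libraries scaled by size alone (r = -0.686, exact permutation, adjusted p = 0.13) and without A37824 or A42931 (adjusted p = 0.0741 and 0.0539), and that for miR-375 without A37824 (adjusted p = 0.0882).

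The calves at the low end show the pattern. HI calf A27823 had 1969 CPM of miR-7, the least in the series, 112 CPM of miR-375 and 10420 CPM of miR-338, the most in the series. MOD calf A97821 had 2132 CPM of miR-7, 75.7 CPM of miR-375 and 5179 CPM of miR-338. The other calves with less than 400 CPM of miR-375 were HI calves A13745, A47858 and A27848, with 4844, 4102 and 3927 CPM of miR-338. The median of miR-338 over all 30 calves was 2248 CPM, so all 5 calves were above it. The part of myelinated tissue in the piece taken was not tested.

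miR-375 also followed the miRNAs of ciliated ependyma, the cell layer that lines the brain ventricles, but with opposite signs in the 2 sets. The list holds miR-34b, miR-34c, miR-449a, miR-449b and miR-449c, and all 5 passed the filter. In the 21 calves r with its score was 0.776 for miR-375 (permutation test, adjusted p = 0.00048, rho = 0.756) and 0.604 for miR-7 (permutation test, adjusted p = 0.0112). For miR-7 the relation rested on 2 calves, since r was 0.395 without A47858 and A97821 (permutation p = 0.0967) and rho was 0.448 (adjusted p = 0.0889). In the 9 calves r was -0.869 for miR-375 (exact permutation, adjusted p = 0.0145) and -0.700 for miR-7 (exact permutation, adjusted p = 0.11). The call for miR-375 in the 9 was lost with size scaling alone (r = -0.778, exact permutation, adjusted p = 0.0864) and without A37824 (adjusted p = 0.0922). The difference between the sets was not tested. Of single miRNAs, chosen after their values were seen, miR-34c was the most like miR-375 in the 21 calves (r = 0.923), followed by miR-34b (r = 0.893), whereas miR-449a, miR-449b and miR-449c of the same list had r of 0.418, 0.490 and 0.431. Calf A97821 had 54.1 CPM of miR-34c and calf A27823 had 100 CPM, against a median of 1768 CPM over the 21 calves. The part of the ventricle wall in the tissue taken was not tested.

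**Figure D4:**
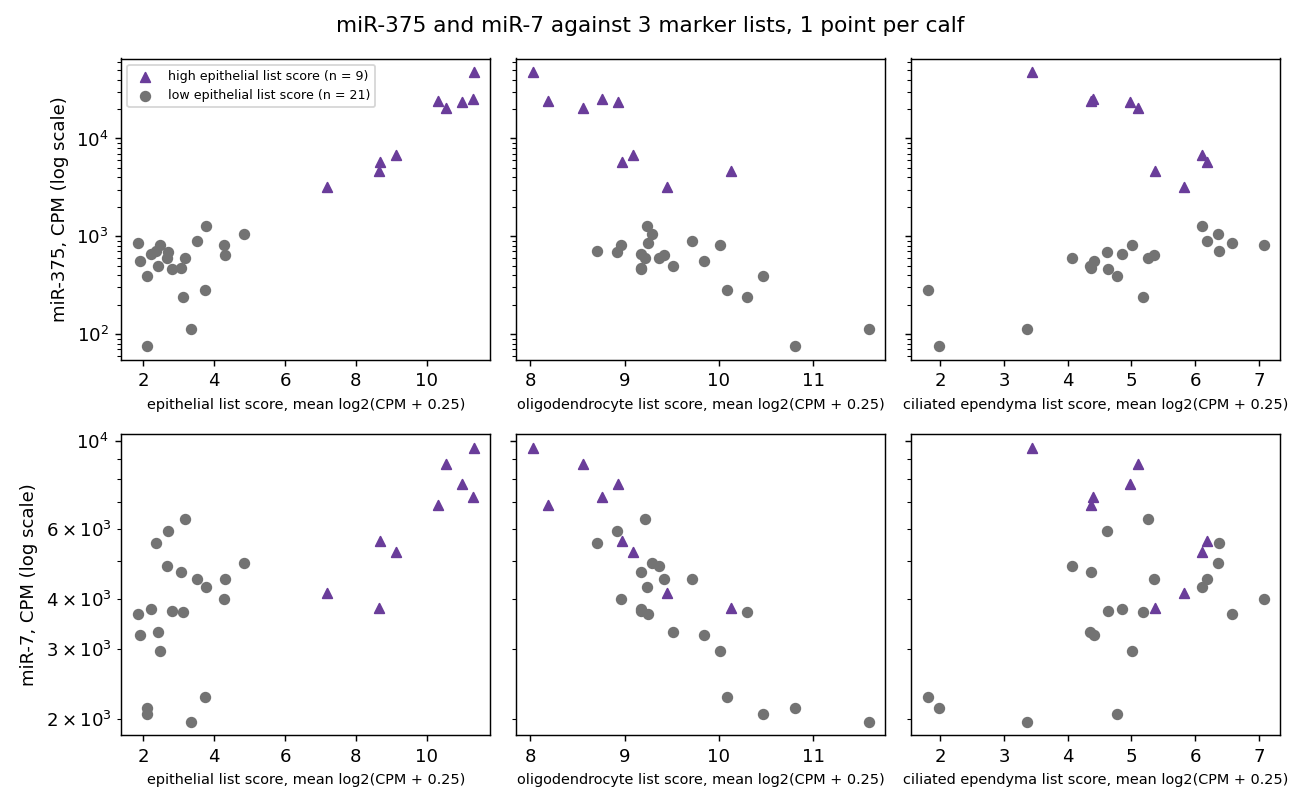
CPM of miR-375 (top, log scale) and miR-7 (bottom, log scale) against the mean log2(CPM + 0.25) of the epithelial, oligodendrocyte and ciliated ependyma lists, 1 point per calf. Triangles are the 9 calves with a high epithelial list score and circles the 21 with a low score. miR-375 climbs with the epithelial list among the triangles (r = 0.965) and passes no test among the circles (r = 0.23), and both members fall with the oligodendrocyte list in both sets.

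By Pearson's r the remaining marker lists did not pass the test with either member in either set. In the 21 calves, r with the vascular list was -0.318 for miR-375 and -0.484 for miR-7 (permutation test, adjusted p = 0.239 and 0.0644), and in the 9 calves 0.531 and 0.280. The rank correlation of miR-7 with the vascular list in the 21 calves did pass (rho = -0.540, permutation test, adjusted p = 0.0468), and so did r with diet means removed (-0.588, adjusted p = 0.0123). With libraries scaled by size alone, miR-7 passed with the choroid plexus list there (r = 0.538, adjusted p = 0.0277). For the choroid plexus list the values lay between 0.089 and 0.217 over both members and sets, for the erythroid list between -0.330 and -0.092, and for the leukocyte list between -0.544 and -0.042. Depth did not pass the test either, since r with the log2 reads counted was -0.248 for miR-375 and -0.269 for miR-7 in the 21 calves and -0.350 and -0.444 in the 9 calves. The part of liver could not be examined by its marker miR-122, which did not pass the filter and stayed at or below 14.2 CPM.

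The miRNAs whose levels were most like those of the members were then ranked by Pearson's r over all 30 calves, as a description over libraries that share their 2 sets. miR-7 was most like miR-224 (r = 0.899), miR-3431 (0.885), miR-376b (0.855), miR-381 (0.846) and miR-452 (0.831) among 473 ranked miRNAs. MIR224, MIR452 and MIR3431 all lie within the gene GABRE, a subunit of a receptor for the inhibitory transmitter GABA, and their neighbouring precursors are 0.954 and 1.83 kb apart. MIR376B and MIR381 lie 3.92 kb apart. The miRNAs least like miR-7 were miR-219-3p (-0.872), miR-219-5p (-0.868) and miR-338 (-0.866), and within both sets all 3 lay between -0.897 and -0.822.

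miR-375 had other neighbours in this ranking. Over the 30 calves it was most like miR-141 (r = 0.948), miR-200c (0.942), miR-429 (0.922), miR-200a (0.921) and miR-130a (0.912), of which all but miR-130a are on the epithelial list. It was least like miR-3956 (-0.882), miR-433 (-0.858) and miR-432 (-0.858). Within the 9 calves r with the first 5 lay between 0.949 and 0.980, and within the 21 calves between 0.144 and 0.483. For miR-3956, miR-433 and miR-432, r was -0.937, -0.877 and -0.853 within the 9 calves. Within the 21 calves it was -0.393, -0.280 and -0.416. miR-375 was 10th among the miRNAs most like miR-7 over the 30 calves (r = 0.803), and miR-7 was 27th among those most like miR-375. These places were 34th and 17th within the 21 calves, and 4th and 16th within the 9. Other miRNAs were thus more like each member than its partner was.

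Neither member differed between the diets beyond the spread between calves. miR-7 had a lowest level of 1969 CPM, a median of 4490 CPM and a highest of 9594 CPM in HI calves, with a mean of 4869 ± 2263 CPM (SD, n = 15). In MOD calves the corresponding values were 2132, 4150 and 7769 CPM, with a mean of 4566 ± 1564 CPM (SD, n = 15). The log2 difference between HI and MOD was 0.02 with a standard error of 0.21 (limma, adjusted p = 0.985). The fold change was 1.02 with a 95% confidence interval from 0.752 to 1.37. The sign of the log2 difference turned in 5 of 11 alternative settings, among them library size only (-0.021) and the 21 calves with low scores (-0.11).

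For miR-375 the interval was wide. HI calves had a lowest level of 112 CPM, a median of 652 CPM and a highest of 47575 CPM, with a mean of 7203 ± 13472 CPM (SD, n = 15). MOD calves had 75.7, 821 and 25453 CPM, with a mean of 4414 ± 8326 CPM (SD, n = 15). The HI group had the higher mean and the lower median, and the groups overlapped over most of their range. The log2 difference was 0.21 with a standard error of 0.86 (limma, adjusted p = 0.984). Its fold change of 1.16 had a 95% interval from 0.343 to 3.92, so the data were compatible with a difference of either sign within those bounds. The direction turned in the 21 calves with low scores, where the log2 difference was -0.32 (limma, adjusted p = 0.889), and the count tests on recovered reads gave 0.74 (edgeR) and -0.11 (DESeq2), neither past the threshold.

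As the background to these values, limma called 0 of 476 miRNAs between the diets (0%) at an adjusted p under 0.1 with a fold change above 1.5. At an unadjusted p under 0.05, 21 miRNAs passed (4.41%), and 8 miRNAs had a fold change above 1.5 in either direction (1.68%). Neither member was among them. On the reads recovered from the table, edgeR called 0 miRNAs (20 at an unadjusted p under 0.05) and DESeq2 called 1, miR-2419-3p, named here after its value was seen. Over all 476 miRNAs the log2 difference between HI and MOD was above 0 for 235 and below 0 for 241, with a median of -0.002, and with libraries scaled by size alone these counts were 166 and 310. None of the marker miRNAs passed the test. The mean log2 level of all 6 tested epithelial list miRNAs was higher in HI calves, with differences from 0.52 to 0.89 (smallest adjusted p = 0.982), although the mean CPM of miR-183 was lower in HI (607 against 642 CPM). The mean log2 level was lower in HI calves for all 5 ciliated ependyma miRNAs, by -0.51 to -0.19, and for all 4 vascular miRNAs, by -0.46 to -0.07, of which miR-145 had an unadjusted p of 0.00797 (limma, adjusted p = 0.878). The signs of these 3 lists were the same with size scaling alone, DESeq2 size factors and upper quartile scaling. Of the 9 neuron rows 2 were higher and 7 lower, of the 5 leukocyte miRNAs 2 were higher and 3 lower, and the 2 hypothalamic neuron, 2 oligodendrocyte, 2 choroid plexus and 3 erythroid miRNAs were all higher in HI, by at most 0.12. With size scaling alone only the oligodendrocyte list among these last 4 had every member higher.

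**Figure D5:**
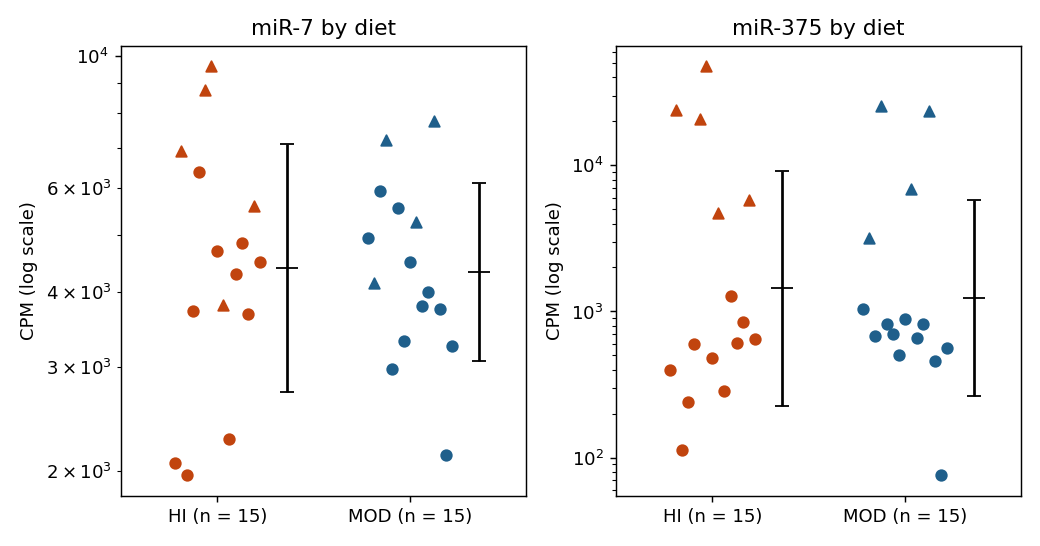
CPM of miR-7 (left) and miR-375 (right) on log scales in HI and MOD calves, 1 point per calf (n = 15 per diet), with triangles for calves with a high and circles for calves with a low epithelial list score. Bars show the mean ± SD of the log2 values, placed on the CPM axis. The diets overlap for both miRNAs (log2 differences of 0.02 and 0.21), and each diet holds calves of both sets.

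The diet values were also small beside the spread within the depth classes and the animal code classes, neither of which the labels name as a batch. In the shallower libraries the log2 difference of miR-7 was 0.09 (exact permutation p = 0.749) and in the deeper libraries -0.31 (exact permutation p = 0.524). For miR-375 these were 0.40 (exact permutation p = 0.717) and -0.44 (exact permutation p = 0.786). In the 9 lowest animal codes the values were 0.07 for miR-7 and 0.16 for miR-375 (exact permutation p = 0.972 and p = 1), and in the other codes -0.07 and -0.14 (exact permutation p = 0.748 and p = 0.885). The diet difference in the deeper libraries less that in the shallower ones was -0.39 for miR-7 and -0.84 for miR-375. Neither passed the test in limma (adjusted p = 0.999 for both). The diet difference in the lowest codes less that in the other codes was 0.15 and 0.31 (limma, adjusted p = 0.948 and 0.971). The log2 ratio of miR-375 to miR-7 was -1.61 ± 2.16 in HI and -1.80 ± 1.85 in MOD calves (SD, n = 15 each), a difference of 0.19 (permutation p = 0.794).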

How the data were processed

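Small RNA was sequenced from the ARC of 30 calves. According to the study's methods, adapters were trimmed, reads of 15 to 28 bases were kept, other small RNA classes were removed, and miRNAs were counted with miRDeep2 against ARS-UCD1.2. The labels name a stranded RNA kit where the methods name a small RNA kit. The submitters' processing notes name FastQC 0.11.8, cutadapt 2.6 and edgeR 3.5. The deposited values are a signal of CPM form, which the authors scaled by effective library size, with totals from 825695 to 1429908 per library. They are used here as CPM. Division by each library's smallest step gave whole reads (within 0.02, values under 200 reads) for 94.5 to 97.9% of values. These reads gave the depths, the intervals, the filter (filterByExpr in edgeR 4.0.16, 476 miRNAs kept) and the count tests, which are alternatives.

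Groups came from the labels. The diets were compared with limma 3.58.1 (R 4.3.3) on log2(CPM + 0.25), with a mean-variance trend, all 30 libraries, no covariate and Benjamini-Hochberg adjustment over the 476 miRNAs. Ratios, differences within depth and code classes and correlations had two-sided permutation tests in Python 3.11.15 with scipy 1.17.1, exact for differences within these classes and for correlations over fewer than 10 calves, and otherwise with 100000 resamples, and correlations were adjusted over families of 10 and 12 relations within each set at 0.05. Sets were split at the largest gap of the epithelial list score. The text names the members, the 5 miRNAs most and the 3 least like each, and list miRNAs as counts, ranges and examples. Members, lists and tests were chosen with earlier results of these data known. The methods say that calves came from shared farms and sires, balanced over the diets. Farm and sire are not in the labels and were not used, so the tests treat calves as independent. Alternatives were library size only, DESeq2 1.42.0 size factors or upper quartile scaling, a pseudocount of 1, no filter, depth and code class terms, the list score as a term, untransformed CPM, and each calf left out. The scripts' tests were checked on simulated data.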

Additional observations from a re-analysis of the deposited data

How the results depend on the processing

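The 2 diet differences stayed short of the threshold under every alternative run (adjusted p 0.865 to 0.999), and their signs were not stable. For miR-7 the log2 difference turned to -0.021 with library size only, -0.024 with a depth term, -0.036 with an animal code term, -0.063 with the epithelial list score as a term and -0.11 in the 21 calves with low scores, and lay between -0.058 and 0.105 as each calf was left out. For miR-375 it turned to -0.11 in DESeq2, -0.071 with a code term, -0.26 with the list score as a term and -0.32 in the 21 calves, was 0.74 in edgeR, and lay between -0.15 and 0.53 as each calf was left out. DESeq2 called 1 miRNA, and limma called 0 to 1 as each calf was left out, with the same miRNA, miR-2419-3p, called without A77860 or without A97854. The log2 ratio difference turned to -0.13 in the deeper libraries, -0.073 in the other animal codes and -0.21 in the 21 calves, and lay between -0.088 and 0.451 without single calves. No paired analysis was possible because each calf had 1 diet and the labels give no shared replicate number.

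In the 21 calves, miR-7 with miR-375 fell to r of 0.524 on untransformed CPM and stayed between 0.596 and 0.721 without single calves, all past the threshold. After the list score it lay between 0.549 and 0.703, and lost the call without A27823 (adjusted p = 0.0635). Library size only gave r of 0.596 (miR-375) and 0.633 (miR-7) with the neuron list, 0.408 and 0.528 with the hypothalamic neuron list (both neuron calls and the second of these gained), 0.538 for miR-7 with the choroid plexus list (gained), and 0.371 and 0.166 with the leukocyte list. DESeq2 size factors gave -0.041 and -0.018 with the neuron list and -0.083 for miR-7 with the hypothalamic neuron list, which was -0.000619 with depth class means removed. Removing diet means gave -0.588 for miR-7 with the vascular list. Without single calves, the ranges were -0.162 to 0.364 and -0.113 to 0.275 with the neuron list, -0.253 to -0.036 and -0.064 to 0.167 with the hypothalamic neuron list, -0.026 to 0.206 for miR-375 with the choroid plexus list, -0.588 to -0.406 for miR-7 with the vascular list (called without A47858 or A12937), -0.144 to 0.065 for miR-375 with the leukocyte list and 0.521 to 0.650 for miR-7 with the ependyma list, where the call was lost without A97821 (adjusted p = 0.0573). The oligodendrocyte relations of both members kept their calls under every scaling and without every single calf.

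In the 9 calves, library size only gave 0.737 for miR-7 with the epithelial list, -0.334 with the neuron list, -0.686 with the oligodendrocyte list, and for miR-375 -0.701 with the hypothalamic neuron list and -0.778 with the ependyma list, all short of the threshold. With the choroid plexus list it gave -0.405 and -0.095, removing depth class means gave -0.134 and -0.124, and removing code class means gave -0.18 and -0.123. It gave -0.247 for miR-7 with the vascular list, and removing code class means gave 0.011 for miR-375 with the erythroid list. Without single calves, the ranges were -0.838 to -0.687 for miR-7 with the neuron list (call lost without A37824, A42931, A21978 or A57867), -0.844 to -0.674 and -0.776 to -0.531 with the hypothalamic neuron list (lost for miR-375 without any of those or A93744, gained for miR-7 without A41971), -0.860 to -0.766 and -0.923 to -0.817 with the oligodendrocyte list (both lost without A37824, and that of miR-7 without A42931), -0.902 to -0.821 for miR-375 with the ependyma list (lost without A37824), -0.223 to 0.451 and -0.094 to 0.495 with the choroid plexus list, and -0.322 to 0.255 and -0.496 to 0.144 with the erythroid list. The relations of miR-7 with miR-375 and of miR-375 with the epithelial and neuron lists kept their calls under every alternative. The first of these fell to r of 0.771 with library size only. The causes of these changes were not tested.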
